A study of Homo sapiens with 15 samples.

Results

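Cells of the human lung adenocarcinoma line A549 that had received 41.1 ppm dimethylamine vapour (mid dose, MD) were compared with non-exposed cells of the same experiment that had received no flow of air at all (NEC). The comparison was defined by the group labels alone and takes 6 of the 15 arrays of the series, 3 for each group, and all 135750 transcript clusters of the Clariom D array, each of which sums the probes of a gene or other transcribed unit. Medium fed the cells from below through a porous membrane, and the gas reached them from above (air-liquid interface). MD cells were exposed for 60 min and left for 23 h, and 3 such cycles filled 72 h. MD minus NEC therefore contains the flow of air and the vapour together. The other groups were LD (14.9 ppm), HD (81.7 ppm) and CA, which had the same flow of clean air with 0 ppm dimethylamine, with 3 arrays each. One replicate pooled 2 wells of a single cell line, so the p-values cover the spread between such pools. By the labels all MD arrays came from exposure plate 5, LD from plate 1 and HD from plate 6, whereas NEC and CA had 1 array on each of these plates (replicates 1, 2 and 3 on plates 1, 5 and 6). The spread behind the p-values thus mixes pools of 1 plate number, in the vapour groups, with pools of different plates, in NEC and CA. The exposure plate described in the methods has too few vapour wells for 3 pools of 1 dose, and more than 1 physical plate may therefore share a number. The RNA of MD replicate 3 was left out as an outlier in a separate sequencing assay of the study. Its array was kept here, and the count of calls and the list counts that changed most without it are also given so.

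As background, dimethylamine is a small, volatile and alkaline amine that irritates the airways. A549 cells keep some traits of the alveolar epithelium, but they also transcribe genes better known from liver, among them fibrinogen, complement and alcohol dehydrogenase genes. At an air-liquid interface even clean air changes the surroundings of the cells, since flow can dry the surface liquid and shear it, and a non-exposed control leaves that in the comparison.

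The array medians lay between 4.47 and 4.55 on the log2 scale. Arrays correlated at r between 0.980 and 0.984 within MD, between 0.977 and 0.980 within NEC and between 0.976 and 0.982 across the 2 groups. The 612 negative control clusters had a median of 4.70, and differences near or below that level are uncertain in size. The mean over the 7963 protein-coding genes at least 2 log2 units above them varied more between arrays than the array medians did. It was 9.785, 9.912 and 10.17 in NEC and 9.794, 10.01 and 10.21 in MD. NEC replicate 1 and MD replicate 3 were thus the lowest and the highest of these 6 arrays over bright genes as a whole. The epithelial label was met by KRT8 (mean 17.2 in NEC and 17.9 in MD), KRT18 (14.6 and 15.4) and CEACAM6 (16.5 and 17.3). These were chosen from 13 measured A549 and lung epithelial markers. Of the 13, 1 lay below the negative controls in every group, and CDH1 differed by -0.78. Of 15 measured alveolar type II genes, 7 lay below the negative controls in every group. Markers of endothelium (13 measured, 6 below the negative controls in every group) and fibroblasts (12 measured, 5 below) had no member at an unadjusted p below 0.05.

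At an adjusted p below 0.05, 20 of the 135750 clusters were called (0.0147%), 11 of them higher in MD (0.0081%) and 9 lower (0.00663%). In all 20 the MD and NEC arrays did not overlap, which held for 16553 clusters in all (12.2%). A single gene symbol was held by 14 of the 20, 8 higher and 6 lower. These were the membrane protein gene EMP3, the protease gene MMP7, CD79A, CLEC2B, LINC00973, ANXA10, RAB3B and ALDH3A1 on the higher side and FN1, C5, C4BPA, ADH6, CATSPERB and PDE3A on the lower side. The other 6 had no symbol, 3 higher, led by TC1800006897 at 2.50, and 3 lower, led by TC0300007518 at -2.57. The last clusters inside the threshold had adjusted p-values of 0.0393 and 0.0394, and the first outside it had 0.0513, 0.0513 and 0.0527. When the arrays were quantile normalised, the split became 16 higher and 7 lower. By the criteria of the study for arrays, an unadjusted p below 0.05 with a change of more than 2-fold, 1007 clusters were counted (0.742%), 366 higher (0.27%) and 641 lower (0.472%).

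The exposure plate bears on these calls, because MD lies on a single plate. In a model with the plate as a block, all 20 kept their sign and an unadjusted p below 0.05, but EMP3 and MMP7 were the only 2 clusters of the array called. Against the NEC array of plate 5 alone, the MD mean differed in the same direction for all 20. Since no MD and NEC arrays overlapped in these clusters, that direction was fixed in advance and adds no support. Leaving out MD replicate 3 left 1 call, EMP3, and leaving out MD replicate 2 also left EMP3 alone. Without NEC replicate 1, 2 of the 20 were called, without NEC replicate 2, 4 of them and 1 other cluster, and without NEC replicate 3, 5 of them. Without MD replicate 1 there were 22 calls, 11 in each direction, which held 14 of the 20. EMP3 was the 1 cluster called in all 6 of these fits.

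**Figure D1:**
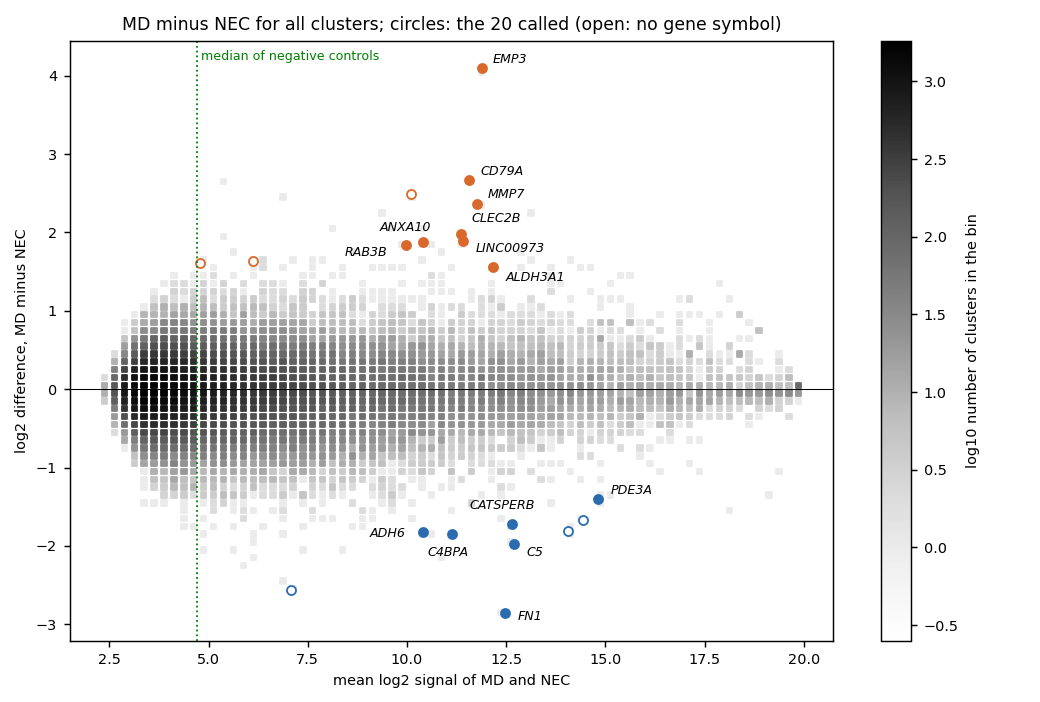
Log2 difference MD minus NEC (vertical) against the mean log2 signal of both groups (horizontal) for all 135750 clusters, in bins shaded by the number of clusters, with the 20 called clusters as circles (orange higher, blue lower, open without a symbol) and the median of the negative controls as a dotted line. EMP3 stands apart at 4.10, and most called genes lie at signals well above the negative controls.

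The sequences before the start sites of 5 genes are shown, because EMP3 and MMP7 kept their calls with the plate, FN1 fell the most, and FDPS and HMGCS1 stand for the sterol genes described further on. Each is the 250 bases before the gene's start on the gene's strand, from the RefSeq promoter table of GRCh38.p14: chr19:48325302-48325551 (+) for EMP3, chr11:102530748-102530997 (-) for MMP7, chr2:215436069-215436318 (-) for FN1, chr1:155308616-155308865 (+) for FDPS and chr5:43313413-43313662 (-) for HMGCS1. Capitals mark, on either strand, TATAAA (the TATA box), TGANTCA (the AP-1 element) and CCAAT.
EMP3: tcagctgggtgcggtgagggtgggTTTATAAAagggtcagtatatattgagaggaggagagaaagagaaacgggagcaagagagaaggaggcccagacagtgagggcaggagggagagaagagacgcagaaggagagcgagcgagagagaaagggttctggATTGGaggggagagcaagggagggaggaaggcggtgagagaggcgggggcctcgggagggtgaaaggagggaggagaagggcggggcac
MMP7: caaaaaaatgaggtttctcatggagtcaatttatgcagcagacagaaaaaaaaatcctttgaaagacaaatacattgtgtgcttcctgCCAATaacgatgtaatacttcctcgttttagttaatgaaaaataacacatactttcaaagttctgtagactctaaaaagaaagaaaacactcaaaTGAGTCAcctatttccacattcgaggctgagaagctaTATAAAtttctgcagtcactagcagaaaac
FN1: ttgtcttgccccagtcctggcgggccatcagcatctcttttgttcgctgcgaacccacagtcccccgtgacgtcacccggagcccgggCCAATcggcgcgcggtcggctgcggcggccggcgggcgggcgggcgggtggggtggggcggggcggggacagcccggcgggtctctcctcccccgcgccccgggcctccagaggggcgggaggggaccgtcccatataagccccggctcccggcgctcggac
FDPS: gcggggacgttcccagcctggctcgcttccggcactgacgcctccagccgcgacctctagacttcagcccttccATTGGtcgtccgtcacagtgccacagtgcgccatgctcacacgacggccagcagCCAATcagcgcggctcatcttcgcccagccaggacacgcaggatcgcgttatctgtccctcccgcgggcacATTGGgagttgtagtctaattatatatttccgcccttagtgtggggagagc
HMGCS1: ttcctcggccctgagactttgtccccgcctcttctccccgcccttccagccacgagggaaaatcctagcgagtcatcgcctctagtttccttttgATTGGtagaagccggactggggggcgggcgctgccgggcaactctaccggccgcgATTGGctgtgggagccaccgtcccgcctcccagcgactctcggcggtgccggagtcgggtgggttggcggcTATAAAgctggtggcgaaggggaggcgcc
In this window TATAAA occurred in 11.1%, TGANTCA in 6.6% and CCAAT in 33% of the 27305 promoters of the table. MMP7 carried TATAAA starting 30 bases before the start and TGANTCA starting 67 bases before it. In EMP3, the matches to TATAAA, 1 on each strand, started 226 and 224 bases before the start and share bases. Among the 20 genes named by the rule, 18 had a promoter in the table, and TGANTCA stood in 4 of them, MMP7, LINC00973, RAB3B and PDE3A. A match is a run of letters, and no binding was measured.

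EMP3 encodes a small membrane glycoprotein with 4 spans, related to the peripheral myelin protein PMP22. Its log2 signals were 9.56, 10.14 and 9.82 in NEC and 13.50, 13.94 and 14.37 in MD. The lowest MD array thus stood far above the highest NEC array. EMP3 rose by 4.10 (SE 0.29, n = 3 arrays per group), a 17.1-fold higher signal, with an adjusted p of 1.69e-05, and by 3.94 with the plate as a block (adjusted p = 0.000643). Its gene lies on chromosome 19 from 48325552 to 48330553. The CA arrays, at 11.53, 12.11 and 12.64, lay wholly between the NEC and MD arrays.

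MMP7 encodes matrilysin, a secreted protease of epithelia that cuts matrix and cell surface proteins. NEC gave 11.30, 10.08 and 10.35, and MD gave 12.74, 12.87 and 13.23. NEC replicate 1 was the array nearest to MD, and the groups did not overlap. The rise was 2.37 (SE 0.27), or 5.16-fold, at an adjusted p of 0.00858. It was 2.64 with the plate as a block (adjusted p = 0.00434) and 2.86 against the NEC array of plate 5.

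CD79A, a signalling chain of the B cell receptor, had 9.77, 10.10 and 10.85 in NEC and 12.73, 12.42 and 13.57 in MD. It rose by 2.67 (SE 0.37), or 6.35-fold, with an adjusted p of 0.0219, which became 0.172 with the plate as a block. Most of the 16 leukocyte markers were low or differed little. The list's median difference was 0.02, 6 of its members lay below the negative controls in every group, and 3 were higher at an unadjusted p below 0.05, CD79A itself, CD68 by 1.23 and LYZ by 0.76. The mean of the list on an array ran from 5.86 to 5.93 in NEC and from 5.93 to 6.35 in MD. The pan-leukocyte gene PTPRC was at 5.65 in NEC and 5.70 in MD, and the B cell gene MS4A1 at 3.93 and 3.94.

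CLEC2B, a C-type lectin that serves as a ligand of the natural killer cell receptor NKp80, rose by 1.98 (SE 0.26), from 10.28, 10.25 and 10.58 to 11.93, 12.33 and 12.78. The annexin gene ANXA10, a member of a family of calcium-dependent membrane-binding proteins, rose by 1.88 (SE 0.28), from 9.10, 9.42 and 9.86 to 10.997, 11.23 and 11.79. RAB3B, a small GTPase of regulated secretion, rose by 1.84 (SE 0.27), from 9.23, 9.08 and 8.86 to 10.48, 10.96 and 11.24. In all 3 genes every MD array stood above every NEC array by more than the spread within either group. The rule named called genes whose arrays do not overlap, so this adds no support to the calls. The long noncoding RNA LINC00973 rose by 1.89 (SE 0.23), with NEC at 10.28, 10.18 and 10.96 and MD at 12.39, 12.18 and 12.51. ALDH3A1 oxidises aldehydes and is a textbook target of the aryl hydrocarbon receptor. Its signals went from 11.57, 11.38 and 11.22 to 12.63, 13.11 and 13.10, a rise of 1.56 (SE 0.21, adjusted p = 0.0218), and it lost its call with the plate as a block at an unmoved size (1.57, adjusted p = 0.215).

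FN1, which encodes the integrin-binding matrix glycoprotein fibronectin, fell the most of the genes with a symbol. NEC arrays read 14.45, 13.47 and 13.80, and MD arrays 10.51, 11.28 and 11.36. The difference was -2.86 (SE 0.34), a 7.26-fold lower signal, at an adjusted p of 0.00963. It was -2.48 with the plate as a block, where the adjusted p was 0.117, and -2.42 against the NEC array of plate 5. FN1 lies on chromosome 2 from 215360865 to 215436068. CA read 13.94, 13.07 and 13.19, a range that overlaps NEC, and so did LD, whose highest array was at 13.91. HD, at 9.94, 10.29 and 10.81, overlapped MD.

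C5, the complement protein whose cleavage starts the terminal pathway, fell by 1.97 (SE 0.25, adjusted p = 0.0133). Its arrays were tight, at 13.59, 13.71 and 13.72 in NEC and 11.59, 11.73 and 11.79 in MD. C4BPA, the alpha chain of an inhibitor of the classical complement pathway, fell by 1.85 (SE 0.26), from 12.15, 11.91 and 12.16 to 10.06, 10.42 and 10.18. In both genes the range within each group was far smaller than the gap between the groups, which selection by the same rule favours.

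ADH6, an alcohol dehydrogenase, fell by 1.82 (SE 0.25, adjusted p = 0.0218), from 11.15, 11.37 and 11.46 to 9.42, 9.76 and 9.33. PDE3A degrades cyclic nucleotides, and it fell by 1.41 (SE 0.20), from 15.56, 15.43 and 15.54 to 14.01, 14.18 and 14.11. CATSPERB, known as a subunit of the calcium channel of sperm, fell by 1.72 (SE 0.21), from 13.52, 13.45 and 13.58 to 11.99, 11.80 and 11.62. With the plate as a block the adjusted p-values of the 6 fallen genes lay above 0.05, and the differences lay between -2.48 and -1.27. ADH6, C4BPA and PDE3A were called in none of the 6 fits without 1 array.

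**Figure D2:**
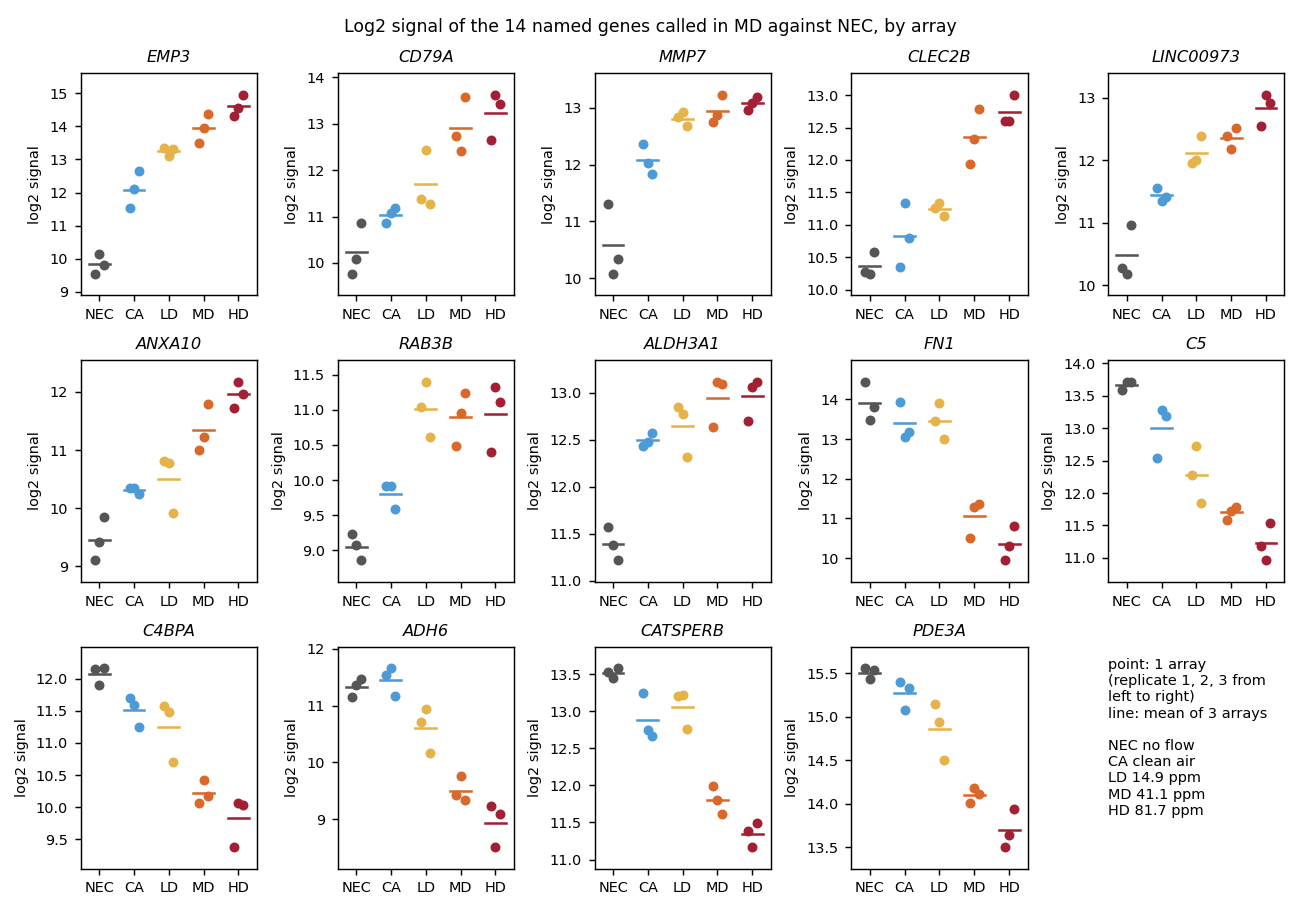
Log2 signal (vertical, a scale of its own in each panel) of the 14 called genes on each of the 15 arrays, by group (NEC no flow, CA clean air, LD, MD and HD vapour), with the mean of 3 arrays as a line. The MD arrays of each gene lie apart from the NEC arrays, and the clean air arrays lie mostly between them.

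**Figure D3:**
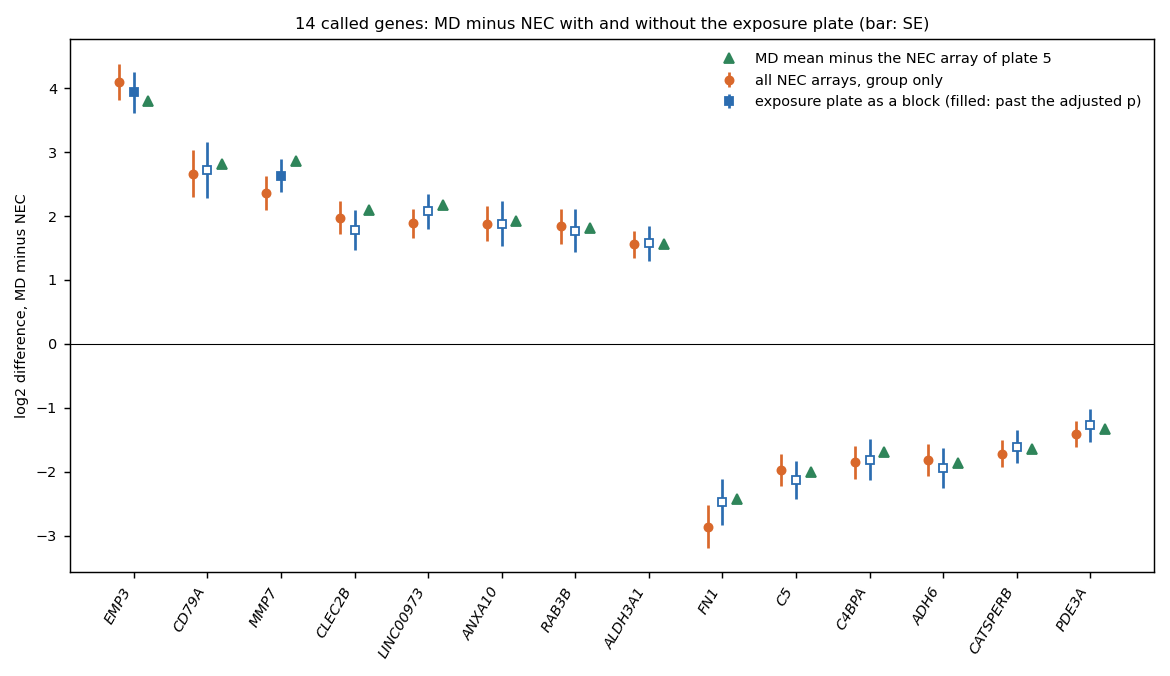
Log2 difference MD minus NEC (vertical) of the 14 called genes from the group-only model (circles, bars are standard errors), with the exposure plate as a block (squares, filled where past the adjusted p) and against the single NEC array of plate 5 (triangles, no error). The estimates stay close to each other, from 4.10 to 3.94 for EMP3 and from -2.86 to -2.48 for FN1 with the block, and 2 squares are filled, EMP3 and MMP7.

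Genes that filled the rule up to 10 in each direction did not pass the adjusted test. On the higher side these were DHRS9, an enzyme that oxidises retinol and steroids, and ACSS2, which makes acetyl-CoA from acetate in cytosol and nucleus. DHRS9 read 3.69, 3.87 and 4.48 in NEC, below the negative controls, and 5.85, 6.45 and 7.56 in MD (difference 2.61, SE 0.47, adjusted p = 0.0969). ACSS2 read 11.20, 12.41 and 12.42 and then 13.99, 14.06 and 14.85 (2.29, SE 0.39, adjusted p = 0.0757). On the lower side were ADH4 (-2.41, adjusted p = 0.12), SLC17A4, a phosphate and urate transporter (-2.10, 0.0527), ADH1C (-2.07, 0.0867) and BAAT, which joins bile acids to glycine or taurine (-2.04, 0.0707). The rule took only genes whose MD and NEC arrays did not overlap, so this holds for all 6 by selection.

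How much of each difference already stood between clean air and no flow can be read by setting CA minus NEC and MD minus CA side by side, which add up to MD minus NEC and share the CA arrays. Neither step had a call of its own over the array. limma called 0 clusters in CA against NEC (0%), with 7381 at an unadjusted p below 0.05, and 0 in MD against CA (0%), with 8378. For EMP3 the parts were 2.25 and 1.85, for MMP7 1.49 and 0.87, and for ALDH3A1 1.11 and 0.45. In these genes the larger part lay between no flow and clean air. For CD79A the parts were 0.80 and 1.87, for CLEC2B 0.46 and 1.52, for FN1 -0.51 and -2.35, and for C5 -0.67 and -1.30. ADH6 had 0.13 and -1.95, so that its clean air arrays (11.53, 11.66 and 11.17) were no lower than the non-exposed ones. Of the 14 called genes, 10 had the larger part between clean air and vapour and 13 had a CA mean between those of NEC and MD. In 11 of the 14 all CA arrays lay between the NEC and MD arrays.

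Set against NEC at the other concentrations, LD had 2 calls (0.00147%), EMP3 and MMP7, and HD had 321 (0.236%), which held 19 of the 20 clusters called for MD. These comparisons share the NEC arrays. The cluster not called in HD was TC1200008699, without a symbol, whose NEC mean of 3.98 lay below the negative controls. It differed from NEC by -0.01 in LD, 1.61 in MD and 0.86 in HD. EMP3 stood 3.41 above NEC in LD, 4.10 in MD and 4.77 in HD. FN1 stood at -0.45, -2.86 and -3.56. MMP7 had close values at the 3 concentrations (2.23, 2.37 and 2.50), and so did RAB3B (1.96, 1.84 and 1.89) and ALDH3A1 (1.26, 1.56 and 1.57). C5 (-1.39, -1.97 and -2.44), ADH6 (-0.72, -1.82 and -2.39) and CLEC2B (0.88, 1.98 and 2.37) were further from NEC at each higher concentration. All 14 genes were further from NEC in HD than in MD. Each concentration has its own plate number. Without a plate term, differences between concentrations cannot be told apart from differences between plates. Differences between neighbouring concentrations were tested too, whereas HD against LD was not. HD against MD called 0 clusters (0%, 6000 at an unadjusted p below 0.05) and MD against LD also 0 (0%, 11639). HD minus MD was 0.67 (SE 0.29) for EMP3, 0.01 (SE 0.21) for ALDH3A1 and -0.70 (SE 0.34) for FN1.

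**Figure D4:**
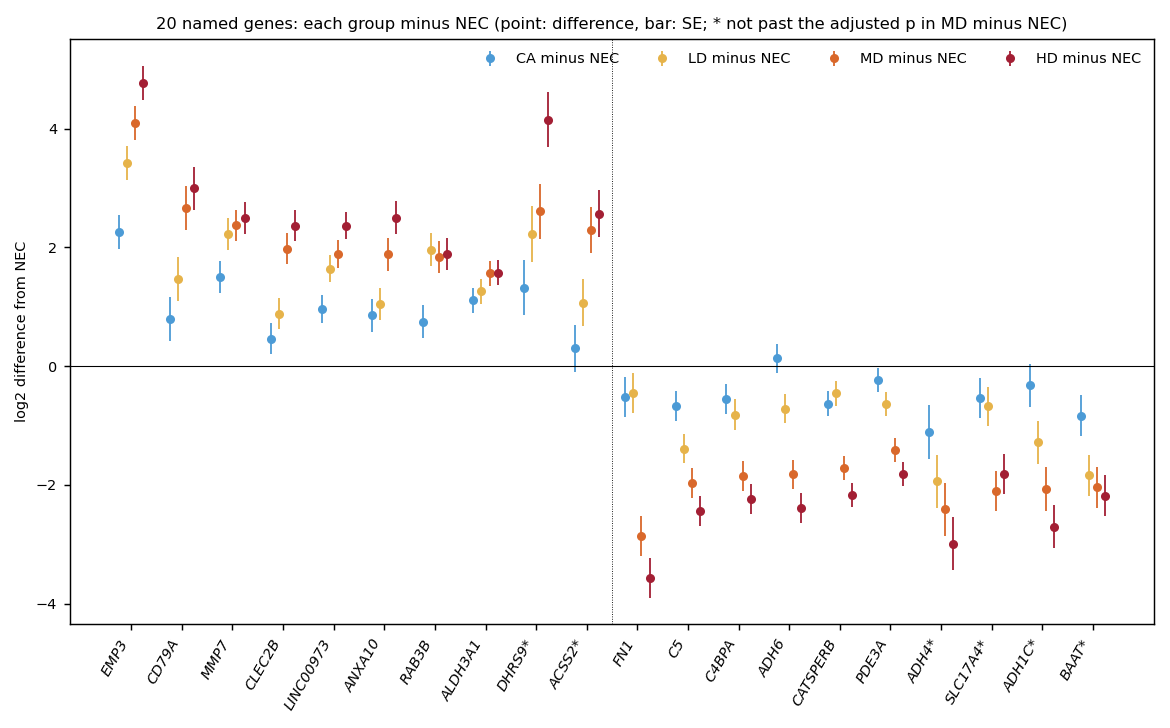
Log2 difference from NEC (vertical, bars are standard errors) of CA, LD, MD and HD for the 20 genes named by the rule, higher ones on the left, with a star on those not past the adjusted p in MD minus NEC. EMP3 already stood 2.25 above NEC in clean air, whereas FN1 stood at -0.51 in clean air and -2.86 in MD.

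Gene lists were described by the count of their members and by their median, beside all genes. With 1 cluster per symbol, 4.17% of 33458 symbols were higher and 2.66% lower at an unadjusted p below 0.05, and among 7963 protein-coding genes that were at least 2 log2 units above the negative controls these shares were 5.3% and 3.79%. The median difference was -0.02 over all clusters and 0.04 over those bright genes. Where a list gene below is given without an adjusted p under 0.05 it was not called.

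Cholesterol synthesis, the pathway from acetyl-CoA through mevalonate and lanosterol that is controlled by the transcription factor SREBP2, had the highest list median, 0.84. None of its 19 measured members was called, 14 were higher at an unadjusted p below 0.05 and 0 were lower. ACAT2, the cytosolic thiolase at the entry of the pathway, read 11.17, 12.19 and 12.39 in NEC and 13.40, 13.69 and 14.03 in MD (1.79, SE 0.29, adjusted p = 0.0527). FDPS, which makes farnesyl diphosphate, differed by 1.17 (SE 0.24, adjusted p = 0.174), HMGCS1, the synthase before the rate-limiting step, by 1.13 (SE 0.26, 0.238) and EBP, a late isomerase, by 1.09 (SE 0.25, 0.265). All 19 members had a positive difference, from 0.21 for PMVK upward. NEC replicate 1 was low for ACAT2 and HMGCS1, and the list mean on an array ran from 12.4 to 13.2 in NEC and from 13.4 to 14.1 in MD. The median was 0.86 with the plate as a block (13 members higher), 0.68 against the NEC array of plate 5, and 0.72 without MD replicate 3 (9 higher). Clean air alone stood 0.27 above NEC, LD 0.44 and HD 1.17. In the promoters of 17 of these genes CCAAT occurred in 14, as in FDPS and HMGCS1 above, against 33% of all promoters. GCGTG, the core of the aryl hydrocarbon receptor element, occurred in 14 against 31.9%. TCACNCCAC, a form of the sterol element, occurred in 0 of the 17 and in 0.875% of all promoters. The high shares of CCAAT and GCGTG were not particular to this list. Among chaperones of the endoplasmic reticulum, with a median difference of -0.21, CCAAT stood in 18 of 19 promoters and GCGTG in 12. In the list of the aryl hydrocarbon receptor, GCGTG stood in 4 of 17.

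Of 13 genes for fatty acid synthesis, 3 were higher at an unadjusted p below 0.05 and 0 lower, with a median of 0.31. They were ACSS2 and, at smaller differences, ACLY, which makes cytosolic acetyl-CoA from citrate (0.70), and ACSL4, which activates long fatty acids (0.66). Of 18 genes for fatty acid oxidation and lipid droplets 0 passed an unadjusted p of 0.05.

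Complement, coagulation and acute phase genes, a group typical of hepatocytes, had the lowest median, -0.37. Of 33 measured, 2 were called lower (C5 and C4BPA), 13 were lower at an unadjusted p below 0.05 and 0 were higher, and 8 lay below the negative controls in every group. FGB, the beta chain of fibrinogen, read 18.29, 19.03 and 19.64 in NEC and 17.32, 17.43 and 17.43 in MD (-1.59, SE 0.30, adjusted p = 0.132). NEC values of FGB come near the highest signals of the arrays, where differences are compressed. CFI, the protease that inactivates C3b and C4b, read 14.94, 14.83 and 15.12 and then 13.62, 13.86 and 14.09 (-1.10, SE 0.22, adjusted p = 0.166). The median was -0.24 with the plate as a block (14 lower), -0.22 against the NEC array of plate 5 and -0.52 without MD replicate 3 (13 lower). Against NEC it was -0.12 for clean air, -0.40 for LD and -0.26 for HD, so the list median was not further from NEC at each higher concentration.

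The alcohol, aldehyde and retinoid dehydrogenases went both ways. Of 24 measured, ALDH3A1 was called higher and ADH6 lower, 3 were higher and 6 lower at an unadjusted p below 0.05, and the median was -0.05. ADH1C read 9.60, 9.15 and 9.69 in NEC and 7.38, 7.03 and 7.83 in MD, and ADH4 read 7.61, 7.72 and 8.56 and then 5.38, 6.20 and 5.08. In both, every MD array lay below every NEC array, which the rule that named them required. Alcohol dehydrogenase genes are close copies, and the probes may not fully separate them.

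The list of squamous, S100 and annexin genes, mainly barrier and calcium-binding genes, had 2 called members of 29, EMP3 and ANXA10. It had 12 higher and 1 lower at an unadjusted p below 0.05, and a median of 0.48. EMP3 is neither an S100 nor an annexin gene, and the lists were chosen with earlier results of these data known. Its call therefore says nothing about S100 or annexin genes. S100A4 read 12.45, 12.20 and 12.20 in NEC and 13.49, 13.70 and 14.56 in MD (1.63, SE 0.29, adjusted p = 0.0896), and S100A6 read 13.001, 12.93 and 12.80 and then 13.95, 14.23 and 15.06 (1.51, SE 0.27, 0.0979). Both encode small calcium-binding proteins, and in both MD replicate 3 was the highest array. Without MD replicate 3 the list had 9 higher members and a median of 0.39. Against the NEC array of plate 5 the median was 0.82. TGANTCA stood in 9 of the 24 promoters matched for this list, against 6.6% of all promoters. It also stood in 5 of 16 for mucins and airway secretory genes, a list with a median of -0.02.

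Genes of the aryl hydrocarbon receptor and of xenobiotic metabolism had 5 of 21 members higher and 0 lower at an unadjusted p below 0.05, 1 of them called (ALDH3A1), and 5 also without MD replicate 3. ABCG2, an efflux pump, read 11.51, 11.55 and 11.52 in NEC and 12.52, 12.92 and 12.65 in MD (1.17, adjusted p = 0.117). CYP1B1, a cytochrome P450 induced by the receptor, differed by 1.54 (adjusted p = 0.161) and CYP2S1, another, by 1.52 (0.164). Most of the CYP2S1 difference, 1.25, already stood between clean air and no flow.

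Target genes of p53, the transcription factor of DNA damage and other stresses, had 8 of 22 members higher at an unadjusted p below 0.05, 0 lower, 0 called and a median of 0.46. The death receptor gene FAS read 7.02, 6.89 and 7.02 in NEC and 7.84, 7.97 and 8.80 in MD (1.22, SE 0.24, adjusted p = 0.151). CDKN1A, the cell cycle inhibitor p21, read 7.65, 9.04 and 9.31 and then 10.04, 10.74 and 11.44 (2.07, SE 0.46, adjusted p = 0.221), and NEC replicate 1 was its lowest array. MDM2, which degrades p53, differed by 1.30 and the death effector BAX by 0.96. With the plate as a block 5 members were higher, with a median of 0.47, and without MD replicate 3 also 5, with a median of 0.30.

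Hypoxia and glycolysis genes had 10 of 27 members higher and 0 lower at an unadjusted p below 0.05, 0 called, and a median of 0.49. The aldolase gene ALDOC read 9.67, 9.69 and 10.54 in NEC and 11.27, 11.58 and 12.44 in MD (1.80, SE 0.34, adjusted p = 0.132). BNIP3, a mitophagy receptor, differed by 0.93, PKM, a pyruvate kinase, by 0.76 and PGK1, a kinase of glycolysis, by 0.82. For PKM the difference of clean air from no flow was 0.62. The median was 0.60 with the plate as a block and 0.77 against the NEC array of plate 5, and it was 0.26 with 5 higher members without MD replicate 3.

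Replication-dependent histone genes had 11 of 35 members higher and 0 lower at an unadjusted p below 0.05, 0 called, and a median of 0.47. H1-3 read 7.02, 6.98 and 6.80 in NEC and 8.03, 7.83 and 8.28 in MD (1.11, SE 0.28, adjusted p = 0.342). H2BC21 differed by 1.16 and H2BC9 by 1.38, the latter with NEC arrays of 4.02, 4.08 and 4.77, near the negative controls. Histone genes are near-identical copies, so single members are uncertain. Without MD replicate 3 the count was 4 higher, and with the plate as a block 5 higher and 1 lower. The lists for S phase and DNA replication (2 of 29 higher, 1 lower) and of G2 and mitosis (2 of 30 higher, 1 lower) were near the shares of all genes (0 and 1 higher without MD replicate 3), with CDC6 at 0.79, PCNA at 0.53, BUB1B at 0.75 and TOP2A at -0.60.

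Genes of epithelial and mesenchymal state had 7 of 20 higher and 1 lower at an unadjusted p below 0.05. Keratin 19 (KRT19) read 9.79, 9.72 and 10.09 in NEC and 10.77, 11.21 and 11.76 in MD (1.38, SE 0.27, adjusted p = 0.138). KRT18 differed by 0.86, KRT8 by 0.68 and the mesenchymal filament gene VIM by 1.05, while E-cadherin (CDH1) was at -0.78. Clean air already stood above no flow by 0.82 for KRT19, 0.51 for KRT18, 0.59 for KRT8 and 0.79 for VIM. The list had 3 higher members without MD replicate 3, and VIM then differed by 0.67. With the plate as a block 4 were higher, and the list median of 0.38 became 0.20 (0.16 against the NEC array of plate 5). Beside FN1, the extracellular matrix and integrin list had 3 of 25 higher and 2 lower, with the laminin receptor chain ITGA6 at 0.81. Its median was -0.05, and without MD replicate 3, or with the plate as a block, 1 member was higher and 1 lower.

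Interferon-stimulated genes had 8 of 24 higher and 0 lower at an unadjusted p below 0.05, with IFIT3 at 0.97 and OAS1 at 1.15, both antiviral effectors. The list median was 0.18 for MD and 0.31 for clean air, both against NEC, and the median for clean air was thus not below that for MD. With the plate as a block 4 members were higher, with a median of 0.06, and without MD replicate 3, 7. Of the 27 NF-kB and cytokine genes 4 were higher and 1 lower, which became 1 and 2 in the model with the plate and 1 and 1 without MD replicate 3. The alarmin gene IL33 read 11.45, 10.97 and 11.77 in NEC and 10.04, 9.93 and 10.18 in MD (-1.35, SE 0.27, adjusted p = 0.167). The chemokine gene CCL20 read 5.27, 7.59 and 7.45 and then 8.06, 8.37 and 8.97 (1.69, SE 0.60), with NEC replicate 1 far below the other 2, and the difference was 0.94 without that array.

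The immediate early and AP-1 list had 4 of 24 higher and a median of 0.22, which was -0.07 with the plate as a block, -0.04 against the NEC array of plate 5 and -0.19 without NEC replicate 1. PHLDA1, an early response gene, differed by 1.27 (SE 0.22, adjusted p = 0.0772) and DUSP6, a phosphatase of ERK kinases, by 1.75 (SE 0.49), which was 1.15 without NEC replicate 1 and 1.02 with the plate as a block. NEC replicate 1, from plate 1, was the lowest NEC array of both genes (8.43 for PHLDA1, and 6.65 for DUSP6 against 8.64 and 8.28).

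The stress lists had few members past an unadjusted p of 0.05. Of 28 ATF4 and CHOP targets 3 were higher and 1 lower, with the pseudokinase gene TRIB3 at 1.08 and the cytokine gene GDF15 at 1.04, and without MD replicate 3 there was 1 higher member and TRIB3 was at 0.69. The 20 chaperones of the endoplasmic reticulum had 1 lower member, XBP1, which encodes a regulator of the unfolded protein response, at -0.69, and a median of -0.21, and without MD replicate 3 it had 4 lower members. Of 24 NRF2 targets 2 were higher and 1 lower, the glutathione peroxidase gene GPX2 at 0.45, TXNRD1 at 0.49 (0.29 without NEC replicate 1) and the exporter gene ABCC3 at -0.46, and 0 were higher both without MD replicate 3 and with the plate as a block. Heat shock proteins had 0 of 15, the metallothionein list 2 of 10 higher, led by MT2A at 1.09, and the osmotic list 2 of 14 higher, led by the glycerol channel gene AQP3 at 1.57 (adjusted p = 0.228). Each of the latter lists had 1 higher member without MD replicate 3. Clean air differed from NEC by 0.84 for AQP3, 0.61 for GPX2, 0.04 for TXNRD1 and -0.05 for ABCC3.

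Surface and transport genes held single differences among still lists. The bicarbonate transporter gene SLC4A4 read 9.89, 10.44 and 10.53 in NEC and 8.86, 8.97 and 8.95 in MD (-1.36, SE 0.28, adjusted p = 0.165). The mucin gene MUC5B read 15.39, 15.92 and 16.20 and then 14.16, 14.42 and 14.90 (-1.34, SE 0.32, adjusted p = 0.284), and it differed from NEC by 0.05 in clean air and by -0.07 in LD. The claudin gene CLDN2 was at -0.85, MUC13 at -0.68 and the surfactant lipid enzyme gene LPCAT1 at -0.88. Among 23 autophagy and lysosome genes the receptor gene SQSTM1 was at 0.99 and the cholesterol exporter of the lysosome, NPC1, at 1.03, and 3 were higher in all (2 without MD replicate 3). The lists for oxidative phosphorylation (0 of 24), cytosolic ribosomal proteins (1 of 18), YAP and TEAD targets (2 of 22), tight junctions (1 higher and 1 lower of 16), ion transport (1 higher and 2 lower of 21), mucins and secretory genes (2 and 2 of 24), alveolar type II genes (1 lower of 15), amine and polyamine metabolism (3 of 24), BCL2 family (3 of 22) and the circadian clock (3 of 18) had medians between -0.06 and 0.16. Without MD replicate 3 the lists for amine metabolism and for the clock had 1 higher member each, those for ribosomal proteins and ion transport 0, that for mucins 1, and the alveolar list 2 lower members.

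**Figure D5:**
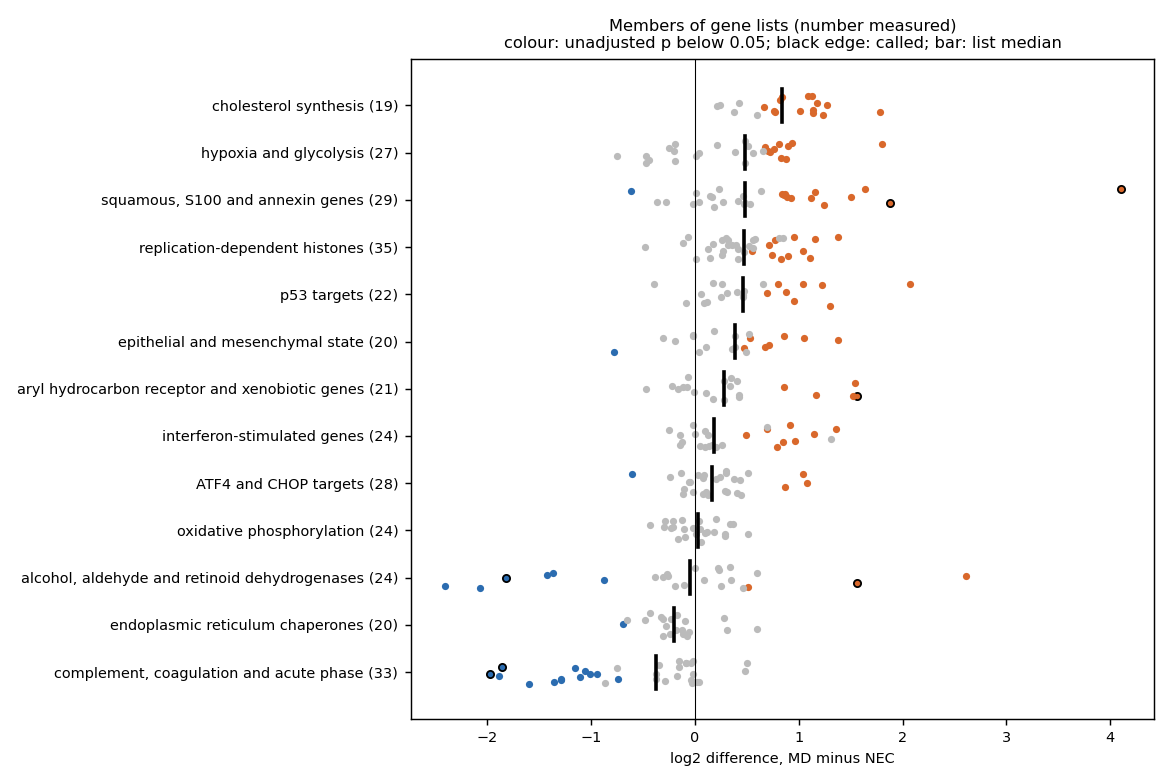
Log2 difference MD minus NEC (horizontal) of every measured member of 13 gene lists (rows, with the number measured), coloured where the unadjusted p was below 0.05 (orange higher, blue lower), edged in black where called, with the list median as a bar and no meaning in the vertical scatter. The 19 members of cholesterol synthesis all lie above 0, and the lower members of the complement list reach -1.97.

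Clusters of different annotation differed in the direction of the 2-fold changes counted by the criteria of the study. Among 98455 clusters without a symbol, 181 (0.184%) were higher and 531 (0.539%) lower, whereas 113 protein-coding clusters of 19505 were higher (0.579%) and 84 lower (0.431%), and 51 of 9618 pseudogene clusters were higher (0.53%) and 15 lower (0.156%). In 24602 of the clusters without a symbol the MD or the NEC mean was at least 1 log2 unit above the negative controls, and of these 94 were higher and 355 lower. Without MD replicate 3 the counts were 313 higher and 608 lower without a symbol, 79 and 107 for protein-coding clusters, where the balance thus turned, and 23 and 17 for pseudogenes.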

How the data were processed

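RNA of A549 cells was hybridised to Clariom D arrays, 15 arrays in 5 groups of 3. The deposited values are log2 signals per transcript cluster, which the authors summarised and normalised by robust multi-array averaging (RMA) in the Transcriptome Analysis Console. RMA brings the probe signals of all arrays to one distribution, so an overall shift in RNA content cannot be seen. The summarised signals still differed between arrays in their mean over bright genes. The scanner intensities were not used here. Array data have no read depth, and their number limits the precision. Of 138745 rows, 2995 control rows were left out. A single symbol was held by 36176 of the other 135750 (platform annotation, updated through NCBI gene tables), several by 1119, and none by 98455.

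limma (version 3.58.1, R 4.3.3, package data.table, 1.17.8) fitted 1 linear model with 5 group means to all 15 arrays, with eBayes (10 residual and 6.32 prior degrees of freedom) and Benjamini-Hochberg adjustment over all 135750 clusters. Every p-value is two-sided and comes from this model, or, where the plate is named as a block, from the same model with a plate term (8 residual and 6.37 prior degrees of freedom). Calls were made at an adjusted p under 0.05. The SE is that of the model. Settings were tested on simulated data, with 2-, 4-, 8- and 16-fold changes, 50 of each, added together in MD to clusters of higher signal. The simulated noise was independent between arrays and held no plate differences. For MD against NEC, 12 of 50 2-fold changes and 43 of 50 4-fold changes were recovered. With fewer true changes the adjusted threshold is stricter, so these shares need not hold for the data. A count of 0 calls therefore does not show that smaller changes were absent. Groups and exposure plates came from the sample labels. An exact permutation test of 3 arrays against 3 could not go below 0.1.

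The text names genes with a single symbol by rule. In each direction these were up to 10 called genes with non-overlapping arrays, by size of the difference. Where fewer were called, protein-coding genes at the criteria of the study filled the place, and they are given as not passing. Their arrays also had to be non-overlapping, and their higher mean at least 1 log2 unit above the negative controls. From each of 38 gene lists up to 4 members with the smallest p were named. A list member was measured by the cluster with the highest mean over all arrays. PMVK and the markers used to check the cell line were named outside this rule. The comparison and the lists were chosen with earlier results of these data known. Promoter sequences were read from a RefSeq table (GRCh38.p14). Plots were drawn with matplotlib 3.10.9.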

Additional observations from a re-analysis of the deposited data

How the results depend on the processing

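Against 20 calls, 2 clusters were called with the exposure plate as a block, 1 when the model held the 6 MD and NEC arrays alone, and 2 without moderation of the variances, of which 1 was among the 20. The model with an intensity trend called 97 clusters, the one restricted to clusters with exactly 1 symbol 60, and the one restricted to clusters above the negative controls 37. Fewer clusters share the adjustment in the last 2. The cause of the other changes was not tested. With CA in place of NEC as the control 0 were called, with 8378 at an unadjusted p below 0.05. Leaving out 1 array at a time gave between 1 and 22 calls. The lowest counts, 1 each, were without MD replicate 2 and without MD replicate 3, and there were 2 without NEC replicate 1 and 5 each without NEC replicate 2 (4 of them among the 20) and NEC replicate 3. Quantile normalisation gave 16 higher and 7 lower calls and kept 18 of the 20.

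By the criteria of the study the count was 1756 with the plate as a block and 289 among clusters with exactly 1 symbol, against 1007, and between 1181 (without MD replicate 3) and 1737 (without NEC replicate 1) when 1 array was left out. None of the 78 genes named in the text changed sign under these settings, and the list medians that did were those within 0.22 of 0, among them the immediate early list (-0.19 without NEC replicate 1). Some other list members did change sign. MT1E went from 0.40 to -0.03 with the plate as a block, and BIRC3 from 0.84 to -0.13 against the NEC array of plate 5. Of the named genes, 12 lost their call with the plate as a block and 2 gained one with quantile normalisation. With the plate as a block 19 of the 38 list counts moved by more than 1.5 times, and without MD replicate 3 also 19.

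No paired analysis was possible because the labels give all NEC arrays the same replicate number, and the numbers 1, 2 and 3 used here for NEC and CA only name arrays. The plate, which NEC and CA share, was used as a block instead. The deviations of CA and NEC arrays of one plate from their group means correlated at 0.26, 0.07 and 0.20 for plates 1, 5 and 6. MD lies on 1 plate, so the block rests on the NEC and CA arrays for the plate difference. The spread covers pools of a single line, and signals near the negative controls have uncertain size.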

Other observations

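Small nuclear and vault RNAs at the criteria of the study were chosen after their values were seen, and none was called. Of 67 small nuclear RNA clusters, 4 were higher (5.97%), and of 4 vault RNA clusters, 2 (50%). Without MD replicate 3, 1 of each class met these criteria. VTRNA1-1, a vault RNA, read 5.59, 5.19 and 5.75 in NEC and 6.54, 7.10 and 7.52 in MD (difference 1.54, adjusted p = 0.0527). RNU11, an RNA of the minor spliceosome, read 5.48, 5.90 and 5.61 and then 6.85, 7.50 and 9.96 (2.44, adjusted p = 0.227). RNVU1-17, a variant U1 RNA with near-identical copies, read 13.70, 14.08 and 13.59 and then 14.62, 14.85 and 16.58 (1.56, adjusted p = 0.41). MD replicate 3, whose RNA was left out in the sequencing of the study, was the highest MD array in each of these genes. Without it the differences were 1.31 for VTRNA1-1, 1.51 for RNU11 and 0.94 for RNVU1-17.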
